A study of Mus musculus with 8 samples.

Results

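Nnt encodes nicotinamide nucleotide transhydrogenase, and it was read by 3 of the 45101 probe sets on the array, which were all the probe sets annotated to this gene and to no other. The protein lies in the inner mitochondrial membrane, where it uses the proton gradient built by the respiratory chain to pass a hydride from NADH to NADP+. The NADPH made in this way keeps glutathione and thioredoxin reduced in the mitochondrial matrix, and both are used to break down peroxides. In C57BL/6J mice from the Jackson Laboratory a run of exons inside the gene is deleted and functional protein is missing, and this strain has been known for its reduced insulin secretion in response to glucose. On the mouse assembly GRCm38.p6 the gene lies on chromosome 13, with Fgf10 and Paip1 as the nearest protein-coding genes on its sides.

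The samples were islets of male C57Bl/6J mice that had been fed regular rodent chow (NC) or a diet with 45% of its calories as fat (HF) from weaning at 4 weeks of age. The labels give 12 weeks on diet, and the study's methods give a longer time. Each diet had 4 samples with 1 array each, numbered 1, 2, 4 and 5 in NC and 21, 22, 23 and 24 in HF, and the islets of 2 mice went into each of them, so that n counts pools. All 8 samples were of the strain that carries the Nnt deletion, as the study describes its mice, while the labels do not state it per sample. No mouse with an intact Nnt was among them, so the effect of the deletion itself was not compared here.

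The hormone genes Ins2, Gcg and Sst were bright in all samples, at 30024 or more, while those of connective tissue and leukocytes differed strongly between the diets. The test was passed where the adjusted p was below 0.05 and the level changed at least 1.5-fold. Of all genes 5.33% passed, 0.537% as higher and 4.8% as lower. None of 9 measured beta cell markers passed. Their log2 fold changes had a median of 0.11, and their summed intensity was 250914 to 256584 in NC and 265569 to 278402 in HF. With 1 probe set per gene, all 7 fibroblast markers fell in HF islets, with a median log2 fold change of -2.44. Their summed intensity was 8937 to 13836 in NC and 1517 to 3087 in HF. The other retained probe sets of Col1a2 (-2.35) and Col3a1 (-2.26) passed as well, while those of Col1a1 (-0.66) and Pdgfra (-0.06) did not. Of 5 leukocyte markers 4 passed as lower, and the sums of all 5 were 2183 to 2574 in NC and 998 to 1159 in HF. One marker passed as lower in each of the alpha cell, duct cell and endothelial cell lists, of 3, 3 and 4 measured. In the alpha cell list it was Irx2, at 123 to 178 in NC and 60.9 to 112 in HF. All 4 endothelial markers had a log2 fold change below 0 (median -0.57), with sums of 2328 to 3098 in NC and 1832 to 2300 in HF. None passed in the acinar list of 5 or the delta and PP cell list of 3. All 3 delta and PP cell markers were below 0 (median -0.25), with Ppy at 58643 to 59686 in NC and 42638 to 56317 in HF. The acinar markers were bright as well, with summed intensities of 197207 to 250005 in NC and 212004 to 243226 in HF. The samples thus held exocrine RNA beside that of endocrine cells. Each marker counted had at least 1 sample above 8.82, the lowest level kept by the filter. For Krt19, the duct cell marker that fell, this held through NC (10.7 to 40.4). Its HF values of 5.15 to 8.53 all lay below that level, so the size of its fall was not read. In islet RNA of this kind, fewer cells of a type and less RNA per cell cannot be told apart, and the part of these markers in the values of Nnt was not tested.

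Of the 3 Nnt probe sets, 2 were bright in every sample and 1 was at the level of genes that islets should not express. The probe set 1416105_at lay between the percentiles 89.6 and 91.5 of all probe sets of its array, and 1456573_x_at between 90.0 and 92.3. The third, 1432608_at lay between the percentiles 4.13 and 4.36. As a reference for dim signals, 83 probe sets of odorant, vomeronasal and bitter taste receptors had a median intensity of 4.65 and a highest mean of 85.1. Both bright Nnt probe sets lay above all 83, and 15 of the 83 lay below 1432608_at. Values after ± are SDs over the 4 samples of a diet throughout. Probe sets differ in how well they bind their target, so these positions describe signals and not amounts of RNA. A suffix _x_at marks a probe set with probes that can also bind other transcripts.

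Both diets thus gave strong Nnt signal in islets of the strain with the deletion. Where the probes of each set lie against the deleted exons was not analysed here. A probe set outside the deleted part reads the shortened and the full transcript alike, and it checks neither the genotype nor the protein.

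In 1416105_at, the lowest HF value was higher than the highest NC value. The intensity was 1318, 1386, 1412 and 1399.7 in NC replicates 1, 2, 4 and 5. In HF replicates 21, 22, 23 and 24 it was 1548, 1423, 1701 and 1684. The NC samples lay close together, with a coefficient of variation of 3.02%, against 8.18% in HF, and the lowest HF sample, replicate 22, stood only 11.8 units above the highest NC sample. The NC mean was 1379 ± 41.7 and the HF mean 1589 ± 130.0 (SD, n = 4 per diet), which gave a log2 fold change of 0.20 with a standard error of 0.07, or 1.15-fold. This change did not pass the test (limma, adjusted p = 0.142 over all retained probe sets, unadjusted p = 0.0192). Its 95% confidence interval ran from 1.03-fold to 1.28-fold, which lies wholly inside a 1.5-fold change. By exact two-sided permutation p was 0.0286, the smallest that 4 against 4 samples allow. Of the retained probe sets 6.81% had all HF values above all NC values, and 10.1% had an unadjusted p under 0.05 with a higher HF mean, beside 3.7% that passed the test in either direction, 0.644% as higher and 3.06% as lower.

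**Figure D1:**
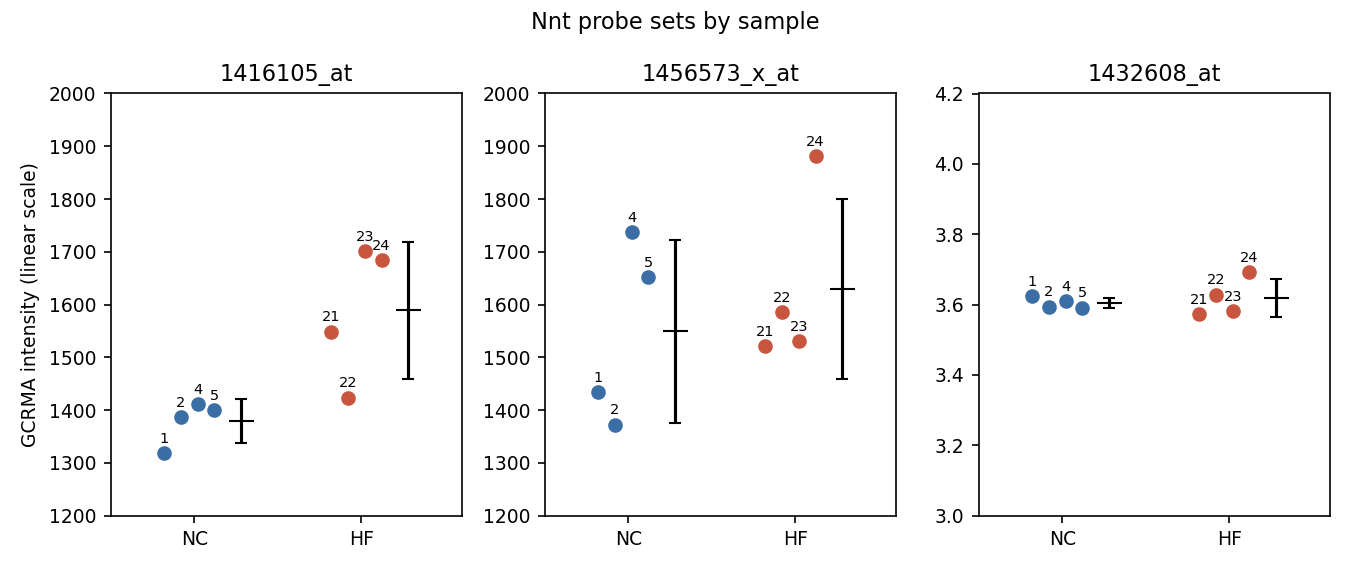
GCRMA intensity (linear y axis, different for the dim probe set) of the 3 Nnt probe sets in the 4 NC and 4 HF samples, with replicate numbers beside the points and the mean and SD as bars. The diets do not overlap in 1416105_at, they overlap in 1456573_x_at, and 1432608_at stays between 3.57 and 3.69 in all samples.

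In 1456573_x_at the diets overlapped. The intensity was 1434, 1372, 1738 and 1652 in NC replicates 1, 2, 4 and 5. In HF replicates 21, 22, 23 and 24 it was 1521, 1586, 1531 and 1881. NC replicates 4 and 5 lay above 3 of the 4 HF samples, and only HF replicate 24 lay above all NC samples. The NC mean was 1549 ± 174 and the HF mean 1629 ± 169.9 (SD, n = 4 per diet), which gave a log2 fold change of 0.07 with a standard error of 0.10 (limma, adjusted p = 0.758), and the exact two-sided permutation p was 0.514. The 95% confidence interval of the change ran from 0.894-fold to 1.24-fold. When the arrays were scaled on the beta cell markers, which moved the median of all genes to -0.10, the log2 fold change was -0.031 for this probe set and 0.10 for 1416105_at (adjusted p = 0.434).

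The dim probe set 1432608_at had intensities of 3.62, 3.59, 3.61 and 3.59 in NC and of 3.57, 3.63, 3.58 and 3.69 in HF, in the order of the replicate numbers. All 8 values lay below 8.82, the lowest level kept by the filter on low values, so the probe set was not among those tested. No level of an Nnt transcript or difference between diets was read from it.

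Both bright probe sets are annotated to the same gene, and the sizes of their diet differences were compared within samples. The log2 value of 1456573_x_at minus that of 1416105_at was 0.16 ± 0.14 in NC and 0.03 ± 0.15 in HF (SD, n = 4 per diet). The difference between the diets was -0.13, with an exact two-sided permutation p of 0.286 (adjusted p = 0.429 over the 3 pairs of probe sets). A difference between the probe sets was not detected, and the differences of NC samples from -0.01 to 0.30 overlapped those of HF samples from -0.15 to 0.16. The pairs with the dim probe set were not read, since it was at the level of background. Across the 8 samples the bright probe sets had a Pearson correlation of 0.44 on the log2 scale, and of 0.38 after each diet's mean was taken off, as a description of arrays that share their normalization. The order of the samples differed between them, with HF replicate 23 the highest in 1416105_at and below NC replicates 4 and 5 in 1456573_x_at.

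**Figure D2:**
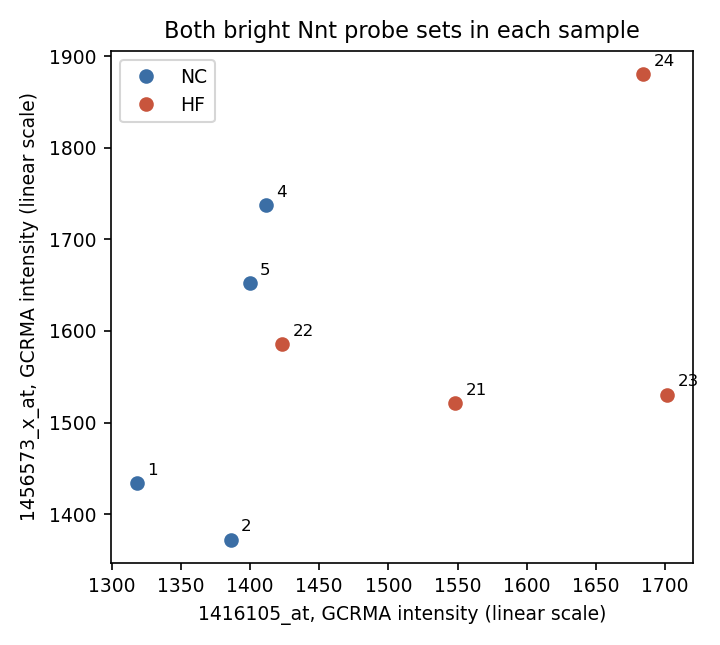
GCRMA intensity (linear axes) of the 2 bright Nnt probe sets in the same sample, 1416105_at on the x axis and 1456573_x_at on the y axis, with replicate numbers beside the points. HF replicate 24 is high in both, HF replicate 23 only in 1416105_at, and NC replicate 4 only in 1456573_x_at.

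The genes listed for the supply of NADPH or its precursor NADP+ inside mitochondria did not pass the test. Which cofactor their enzymes used was not measured. Of 8 listed genes 7 were measured, 0 passed in either direction, and their median log2 fold change was 0.03, beside 0.00135 for all 12299 genes, of which 5.33% passed. None of the 7 had an unadjusted p under 0.05, with limma or with the methods' t-test, which 23% and 20.9% of all genes had. Idh2, the isocitrate dehydrogenase of the matrix, averaged 1426 ± 227 in NC islets and 1484 ± 259 in HF islets (SD, n = 4 per diet), with a log2 fold change of 0.05. Glud1, glutamate dehydrogenase, was the brightest at 3206 ± 187 in NC islets and 2966 ± 333 in HF islets, with a log2 fold change of -0.12. The folate enzymes of mitochondria were Mthfd2 with a log2 fold change of 0.01, Mthfd2l with -0.08 and Aldh1l2 with 0.29. The 3 other retained probe sets of Mthfd2l ranged from -0.41 to -0.06, and 0 of them passed. Aldh1l2, which oxidizes formyl-tetrahydrofolate and yields NADPH, had 1647 ± 218 in NC and 2034 ± 473 in HF (adjusted p = 0.344), and its log2 fold change was 0.14 without HF replicate 22. Nadk2, the mitochondrial kinase that turns NAD+ into NADP+, averaged 458 ± 84.6 in NC islets and 533 ± 33.2 in HF islets, with a log2 fold change of 0.24 (adjusted p = 0.331), while its 3 other retained probe sets ranged from -0.21 to 0.16.

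Me2, a mitochondrial malic enzyme that turns malate into pyruvate, gave different values by probe set. Its brightest probe set averaged 331 ± 29.4 in NC islets and 338 ± 14.6 in HF islets, with a log2 fold change of 0.03. The other 2 retained Me2 probe sets had log2 fold changes of 0.35 (adjusted p = 0.0464 from limma over all retained probe sets) and 0.43 (adjusted p = 0.0253), both under the fold limit, and 6.16% of retained probe sets had an adjusted p below 0.05 without that limit. Me3, the other mitochondrial malic enzyme, was not measured here, since its highest value was 18.3 and too few of its samples lay above 8.82.

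The genes listed for NADPH supply outside mitochondria, not all of which make NADPH themselves, did not pass the test either. Of 9 listed genes of the cytosol and the endoplasmic reticulum 7 were measured, 0 passed and 0 had an unadjusted p under 0.05 with limma or the methods' t-test, and 6 had a log2 fold change below 0 (median -0.04, lowest -0.10). Pgls, an enzyme of the pentose phosphate pathway, had the highest log2 fold change, 0.11. Me1, the malic enzyme of the cytosol, had -0.10 and Nadk, the kinase that makes NADP+ there, -0.09. G6pdx, the first enzyme of the pentose phosphate pathway, is not named by any probe set alone and was not analysed here.

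Of 12 listed genes of mitochondrial peroxide and glutathione defence, only some of which use NADPH, 11 were measured and 0 passed (median log2 fold change 0.02). One had an unadjusted p under 0.05 with limma and 2 with the methods' t-test, of which none kept it after adjustment, beside 5.2% of all genes. The first was Prdx3, the peroxiredoxin of the matrix that breaks down hydrogen peroxide, whose NC mean was 1331 ± 64.9 and whose HF mean was 1500.5 ± 86.3, with a log2 fold change of 0.17 (adjusted p = 0.144). HF replicates 21 and 23 reached 1433 and 1419, beside 1425 in NC replicate 2, so that the diets overlapped. Gsr, glutathione reductase, which spends NADPH to reduce glutathione, averaged 879.6 ± 57.5 in NC islets and 793 ± 59.95 in HF islets, with a log2 fold change of -0.15 (adjusted p = 0.288), and its other retained probe set had 0.15. Glrx2, a glutaredoxin of mitochondria, did not overlap between the diets, with 934 to 981 in NC and 988 to 1011 in HF (log2 fold change 0.06, adjusted p = 0.461). Groups without overlap were found in 16.1% of all genes, with HF above NC in 5.75% and below it in 10.3%.

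Nmnat3 had the smallest p among the genes of the 5 lists. It encodes the mitochondrial form of the enzyme that joins nicotinamide mononucleotide to adenylate to make NAD+, the substrate that the transhydrogenase uses as NADH. Its intensity was 165, 158, 152 and 184 in NC replicates 1, 2, 4 and 5. In HF replicates 21, 22, 23 and 24 it was 211, 241, 259 and 216. All HF samples were thus above all NC samples, by 26.4 units at the nearest. The NC mean was 165 ± 13.8 and the HF mean 232 ± 22.6 (SD, n = 4 per diet), which gave a log2 fold change of 0.49 with a standard error of 0.09 (limma, adjusted p = 0.0121, and 0.0104 to 0.050003 over the alternatives), or 1.40-fold and so under the fold limit. Without a fold limit 8.96% of all genes had an adjusted p under 0.05. Nampt, the enzyme that starts NAD+ synthesis from nicotinamide, had a log2 fold change of -0.12, and its 2 other retained probe sets had -0.10 and 0.10. Naprt, which starts the synthesis from nicotinic acid, had -0.28. Naprt was dim, at 10.03 to 18.1, and had -0.12 without NC replicate 2. Of 11 listed genes of NAD+ synthesis, its mitochondrial carrier and the deacylase Sirt3, 9 were measured and 0 passed (median 0.02). Only Nmnat3 of these had an unadjusted p under 0.05 with limma, and the same number, 1, had one with the methods' t-test.

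General genes of mitochondrial proteins, encoded in the nucleus, had a median log2 fold change of -0.01, with 11 of 12 measured and 0 passed. None had an unadjusted p under 0.05 with limma and 1 with the methods' t-test. The values with the smallest p were those of Vdac1, a channel of the outer membrane, at -0.11, of Hspa9, a chaperone of the matrix, at -0.11 and of Timm23, a subunit of the inner membrane import channel, at 0.13. Over all 5 lists 45 of 52 genes were measured and 0 passed. By limma 2 had an unadjusted p under 0.05 (23% of all genes), and 1 had an adjusted p under 0.05 without the fold limit (8.96% of all genes). Groups without overlap were found in 4 (Nmnat3, Glrx2, Nampt and Sirt3), beside 16.1% of all genes. Those of Sirt3 nearly touched, at 276.2 to 297.1 in NC and 297.6 to 339.4 in HF. Those of Nampt did too, at 622.1 to 648.6 in NC and 516.8 to 621.0 in HF.

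**Figure D3:**
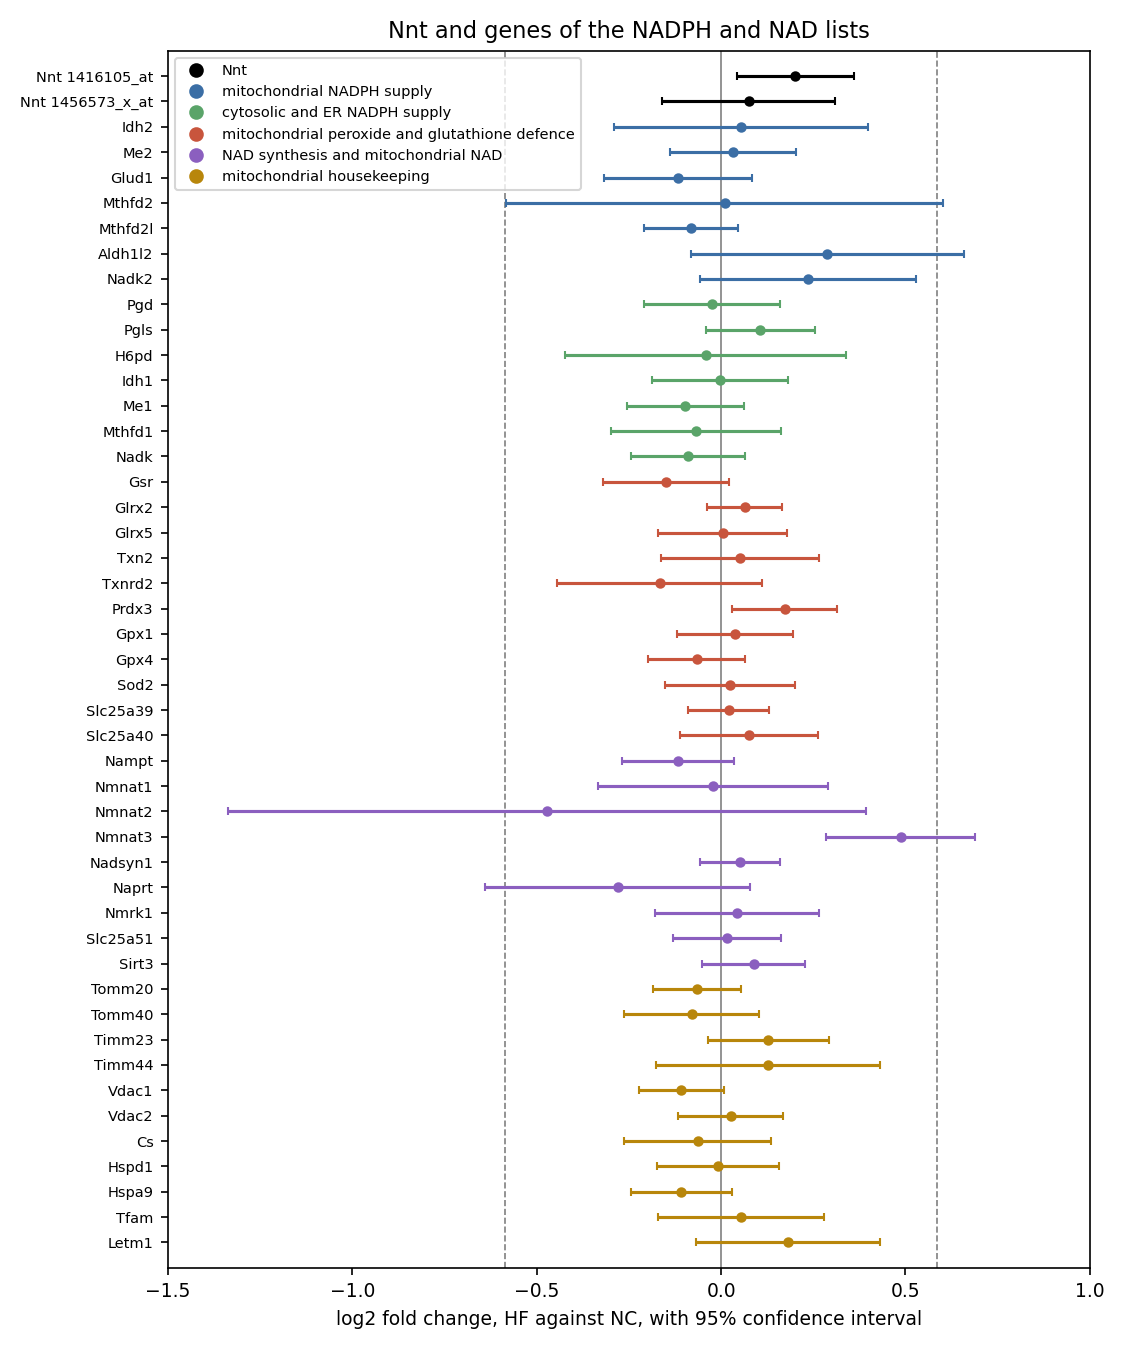
Change from NC to HF islets on the log2 scale (x axis) with the 95% confidence interval from limma for both bright Nnt probe sets and 45 genes of the 5 lists, 1 probe set per gene, coloured by list. The fold limit of 1.5 is drawn as dashed lines, and no gene passed the test, with Nmnat3 at 0.49 the highest.

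The genes next to Nnt on chromosome 13 were read as the setting of the deleted gene. Of the 5 nearest measured genes on each side, 0 of 10 passed, and the median log2 fold change was 0.07. By limma 2 had an unadjusted p under 0.05 (23% of all genes), and by the methods' t-test 2 before adjustment (20.9% of all genes) and 1 after it (5.2%). Paip1, which encodes a partner of the poly(A)-binding protein and is the direct neighbour, averaged 671 ± 105 in NC islets and 703 ± 46.6 in HF islets, with a log2 fold change of 0.08 with a standard error of 0.12. On the same side followed 4833420G17Rik with a log2 fold change of 0.06, 3110070M22Rik with -0.41 (adjusted p = 0.228), Tmem267 with -0.11 and Ccl28. On the other side lay 1700003P14Rik at -8.11e-04, Mrps30, a protein of the mitochondrial ribosome, at 0.09, Emb at 0.13, Parp8 at 0.12 and Isl1, a transcription factor of endocrine cells, at -0.01. Emb, a cell adhesion protein, was the only one of the 10 whose groups did not overlap, as in 16.1% of all genes.

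Ccl28, a chemokine of epithelia, had the largest value among the neighbours, with means of 326 ± 46.9 for NC islets and 493 ± 109.7 for HF islets (SD, n = 4 per diet). Its log2 fold change was 0.58 with a standard error of 0.17 (limma, adjusted p = 0.0735), and its 2 other retained probe sets had 0.13 and 0.79. It passed with sample weights (log2 fold change 0.67, adjusted p = 0.0322) and without HF replicate 23 (log2 fold change 0.70, adjusted p = 0.0382), within a range of adjusted p from 0.0322 to 0.183 over the alternatives.

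**Figure D4:**
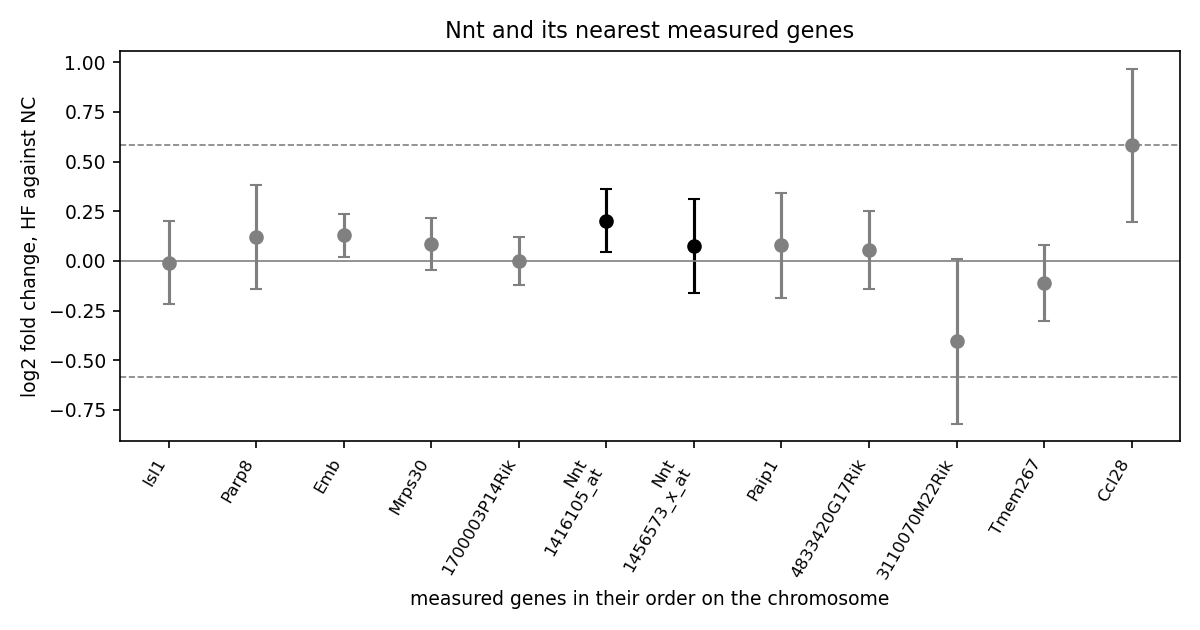
Change from NC to HF islets on the log2 scale (y axis) with the 95% confidence interval from limma of both bright Nnt probe sets (black) and the 10 nearest measured genes (grey), in their order on the chromosome and not to scale of distance. The fold limit of 1.5 is drawn as dashed lines, and no point lies beyond them, with Ccl28 at 0.58 the nearest.

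The genes most like Nnt in their pattern over the 8 samples depended on the probe set. With 1456573_x_at, the brightest, the highest Pearson correlations of log2 values were those of Slc2a4rg-ps (0.92), Wdr4 (0.92), Zfp934 (0.91), Slc41a3 (0.91) and Cpeb4 (0.91). Their log2 fold changes between the diets lay between 0.03 and 0.09, and Slc2a4rg-ps was dim, at 12.2 or less in HF samples. With 1416105_at, taken in addition after the values were seen, they were those of Met (0.96), Stxbp2 (0.96), Rbfox2 (0.94), Tmem181a (0.94) and Kcnma1 (0.93), whose log2 fold changes lay between 0.19 and 0.86. The gene lists shared no member. Of 12298 other genes 6 had a correlation over 0.9 with 1456573_x_at, and 12.7% had a higher one than the other Nnt probe set, all as descriptions over 8 arrays.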

How the data were processed

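Islet RNA of 4 NC and 4 HF samples was measured on Affymetrix mouse expression arrays. The authors read the scans into ArrayAssist Lite 3.4 and computed GCRMA intensity values, adjusted for background and normalized across arrays, which were deposited on the linear scale with 1 value per probe set and sample. The median was 13.0 to 13.8, and the number of arrays limits the precision. Values were taken to log2 here.

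Of the 45101 probe sets 34958 are annotated to 1 gene, 932 to several and 9211 to none named here. The study filtered on presence calls in 3 or more samples. No such calls were used here. Instead, as many probe sets as the study kept, 56.8% of the array, were taken by their third-highest intensity, the lowest being 8.82. HF and NC were compared with limma 3.58.1 in R 4.3.3 (lmFit and eBayes, Benjamini-Hochberg), over all retained probe sets for Nnt and over 12299 genes with 1 probe set each, that of the highest mean, for other genes. SAM, the study's test, was not run. Exact permutation tests in SciPy 1.17.1 used the 70 arrangements of the samples, and limma was tested on simulated data.

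Named were all Nnt probe sets, all genes of mitochondrial NADPH supply, members of the other lists that passed or had the smallest p up to 3, the 5 nearest measured genes on each side and the 5 most alike. The gene, the lists and the tests were chosen with earlier results of these data known. Alternatives were no filter, a stricter one at 20, quantile normalization again, scaling on 9 beta cell markers, sample weights, a robust prior with a trend on intensity, the methods' t-test, folds of linear means, other probe sets and leaving out each sample.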

Additional observations from a re-analysis of the deposited data

Results flagged for a closer look

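Samples far from the other 3 of their diet were looked for in 37 features (74 groups of 4), which were the 3 Nnt probe sets and 34 named genes, and 6 were found, where chance gives about 1 in 20 groups. None was in an Nnt probe set. The measure is the gap to the nearest sample as a share of the group's range on the log2 scale, set against Dixon's 95% critical value. Mthfd2 had 3318 in NC replicate 4 beside 1813 to 1922 in the other NC samples (share 0.904). Mthfd2l had 451 in NC replicate 2 beside 413 to 419 (share 0.831). Aldh1l2 had 2738 in HF replicate 22 beside 1733 to 1856 in the other HF samples (share 0.849). In HF replicate 24, Vdac1 had 5143 beside 4735 to 4798 (share 0.841), Slc2a4rg-ps had 12.2 beside 9.21 to 9.43 (share 0.913) and Wdr4 had 38.5 beside 26.8 to 28.2 (share 0.859). Slc2a4rg-ps and Wdr4 were named for their likeness to 1456573_x_at, in which HF replicate 24 had 1881 beside 1521 to 1586. The rate expected by chance therefore does not apply to these genes.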

How the results depend on the processing

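No paired analysis was possible because NC and HF samples share no replicate number. The log2 fold change of the Nnt probe set 1416105_at was above 0 in all alternatives run, from 0.10 (scaled on beta cell markers, adjusted p = 0.434) to 0.25 (without HF replicate 22, adjusted p = 0.0650). It passed the test in none of them. With no adjustment, as in the methods' t-test (0.20, unadjusted p = 0.0198, adjusted p = 0.168), p was under 0.05 in limma's fits too, except with scaling on beta cell markers (unadjusted p = 0.218), without NC replicate 1 (unadjusted p = 0.0518) and without HF replicate 24 (unadjusted p = 0.0503). That of 1456573_x_at turned to -0.031 with scaling on beta cell markers, which moved the median of all genes to -0.10, and was 0.00355 to 0.13 without 1 sample. With that scaling the log2 fold changes of Idh2 (-0.051), Me2 (-0.073), Mthfd2 (-0.095), Glrx2 (-0.041), Mrps30 (-0.019), Paip1 (-0.026), 4833420G17Rik (-0.049), Slc2a4rg-ps (-0.039), Wdr4 (-0.020), Zfp934 (-0.017), Slc41a3 (-0.041) and Cpeb4 (-0.073) also turned below 0, and Nmnat3 had 0.38 (adjusted p = 0.050003). Quantile normalization again turned Mthfd2 to -2.08e-05 and 1700003P14Rik to 0.012, and sample weights turned them to -0.060 and 0.00238.

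Leaving out 1 sample turned the sign of 10 named genes, none of them past the test: Idh2 ranged from -0.034 to 0.14, Me2 from -0.021 to 0.077, Mthfd2 from -0.19 to 0.22, 1700003P14Rik from -0.018 to 0.026, Isl1 from -0.059 to 0.042, Paip1 from -0.027 to 0.16, 4833420G17Rik from -0.00179 to 0.11, Slc2a4rg-ps from -0.032 to 0.17, Wdr4 from -0.039 to 0.20 and Slc41a3 from -0.032 to 0.12. The counts of 0 in the 5 lists were the same in every alternative run for them, and the methods' t-test was not among those. For the neighbours the count was 1 (Ccl28) with sample weights and 0 to 1 without 1 sample. Over all retained probe sets 165 were higher and 783 lower. There were 85 higher without the filter, and 95 higher and 1119 lower with scaling on beta cell markers. Without 1 sample 93 to 158 were higher (93 without NC replicate 1 or HF replicate 24, 101 without NC replicate 2 and 109 without HF replicate 21). The methods' t-test was counted without the fold limit, so its counts do not follow the same rule. It gave 2310 higher and 2524 lower without adjustment, and 233 and 591 after it. The cause of these changes was not tested.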
